A study of Mus musculus with 10 samples.

Results

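Interferon-stimulated antiviral genes are the set of genes that a cell switches on after an interferon has bound its receptor. The 9 described here are Isg15, Usp18, Ifit1, Ifit2, Ifit3, Mx1, Mx2, Ifi27 and Igtp, taken by name from the annotation of the MG_U74Av2 array, on which each transcript is read by a set of short oligonucleotides. They are 9 of 8251 genes measured in mouse liver. Each had exactly 1 probe set assigned to it alone, so no member could be checked on another probe set, and cross-hybridisation between relatives such as Ifit1 and Ifit3 was not tested.

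The study looked for direct targets of SREBPs, which are transcription factors that switch on lipid synthesis. It used male mice in 5 groups. Scap-/- mice (Scap-/-;MX1-Cre) lack the SREBP escort protein SCAP in liver and were 10 to 12 weeks old on Teklad chow. Wild type mice of the same age and diet were their controls, and both groups had been given polyinosinic-polycytidylic acid 4 times to switch on Cre, with livers taken 14 days after the last dose. Whether these controls carried Cre is not given in the labels. TgSREBP-1a and TgSREBP-2 mice carry the active nuclear part of a human SREBP, either 1a or 2. The transgenic mice and their wild type littermates, aged 12 to 16 weeks, ate food high in protein and low in carbohydrate for 2 weeks, called the high-protein diet here, and littermates below means these wild type mice, with no injection named in their labels. The labels do not name the transgenes' promoter. RNA of 5 mice was pooled per group and each pool was read on 2 arrays. All tests therefore compare 5 pools through the spread between hybridisations, and the difference between mice is not in them.

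Interferons of type I act on many of these genes through the interferon-stimulated response element, abbreviated ISRE, a promoter sequence that a complex holding IRF9 binds. Interferon gamma, the type II interferon, acts through another promoter sequence, the gamma-activated site, abbreviated GAS. Polyinosinic-polycytidylic acid is a synthetic double-stranded RNA that sensors take for viral RNA, which induces interferon. The MX1 promoter is itself interferon-inducible, and this is how the injections start Cre in the Scap-/- model; that promoter also acts in other interferon-responsive cells.

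RefSeq promoter windows (build GRCm38.p6, 250 bases before to 50 after a start) were matched for 5 of the 9 genes. Both strands were searched for the ISRE core, read as GAAA, any 2 bases and GAAA, and for GAS, read as TTCNNNGAA. The ISRE core was in 3.44% and the GAS letters were in 8.3% of 32851 windows of this length. Of the 5 genes, 4 held an ISRE core (Isg15, Ifit1, Ifit3 and Igtp) and 2 held GAS letters (Ifit2 and Igtp). Neither of the Ifit2 windows held the ISRE letters, but they began at chr19:34550444 and 34550838, against an annotated gene start at 34550550. Bases before 34550444 were therefore not searched. The Ifit3 window began at 34583279, after its annotated gene start at 34583119. Among the other interferon genes described below, 50 of 58 had a window, 17 of these held an ISRE core and 14 GAS letters. The 250 bases before the start are shown for the 4 genes with an ISRE core, and for Irgm2, a GTPase of the same family as Igtp, because the signals of these genes moved with the groups below. Capitals mark the matches. They lie at chr4:156200819-156201068 on the minus strand for Isg15, chr19:34640639-34640888 on the plus strand for Ifit1, chr19:34583279-34583528 on the plus strand for Ifit3, chr11:58199306-58199555 on the plus strand for Igtp and chr11:58214727-58214976 on the plus strand for Irgm2.
Isg15: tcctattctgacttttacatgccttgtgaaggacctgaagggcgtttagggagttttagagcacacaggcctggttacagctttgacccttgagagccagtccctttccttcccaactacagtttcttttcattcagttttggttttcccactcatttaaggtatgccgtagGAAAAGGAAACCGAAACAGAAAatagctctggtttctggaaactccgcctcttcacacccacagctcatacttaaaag
Ifit1: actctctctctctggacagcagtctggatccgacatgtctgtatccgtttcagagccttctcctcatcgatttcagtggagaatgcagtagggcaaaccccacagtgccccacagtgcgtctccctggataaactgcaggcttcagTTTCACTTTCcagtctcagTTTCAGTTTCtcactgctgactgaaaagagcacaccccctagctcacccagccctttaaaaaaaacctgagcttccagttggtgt
Ifit3: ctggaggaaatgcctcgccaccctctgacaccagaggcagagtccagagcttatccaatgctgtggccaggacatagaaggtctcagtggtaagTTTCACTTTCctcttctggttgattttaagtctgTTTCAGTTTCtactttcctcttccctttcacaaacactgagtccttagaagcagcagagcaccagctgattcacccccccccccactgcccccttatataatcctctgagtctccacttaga
Igtp: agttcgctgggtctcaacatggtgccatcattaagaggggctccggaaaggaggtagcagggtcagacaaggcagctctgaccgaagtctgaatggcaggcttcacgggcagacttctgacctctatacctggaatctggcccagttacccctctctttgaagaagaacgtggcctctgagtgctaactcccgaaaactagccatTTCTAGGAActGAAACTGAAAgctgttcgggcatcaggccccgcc
Irgm2: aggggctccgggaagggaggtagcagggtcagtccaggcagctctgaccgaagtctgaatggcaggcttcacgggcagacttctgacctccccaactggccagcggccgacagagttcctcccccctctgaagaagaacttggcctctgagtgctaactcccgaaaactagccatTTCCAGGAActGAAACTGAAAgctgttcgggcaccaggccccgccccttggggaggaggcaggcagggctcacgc

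Isg15 carried 3 overlapping ISRE cores between bases -78 and -57. Ifit1 carried 2 in the reverse orientation, starting at -104 and -85, and Ifit3 carried the same pair of letter strings at -156 and -122. In Igtp a GAS match at -45 to -37 stood 2 bases before an ISRE core at -34 to -25. Irgm2 held the same arrangement, a GAS match at -75 to -67 with 2 bases before an ISRE core at -64 to -55, inside an identical run of 55 bases shared with Igtp. These are matches of letters, and no binding was measured. The printed genes were picked for their signals. Windows of Irf7 and Ifi47, whose signals also moved with the groups, held neither motif. Those of Socs1, Oas1g and Trim21 held ISRE cores, but none of these genes was called in any comparison. Whether motifs go with signals was not tested.

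All values are the authors' log2 signals, in which 1 unit is a 2-fold difference. Duplicate arrays correlated at 0.9921 to 0.9978 over genes. The 10 measured hepatocyte markers averaged log2 signals between 11.13 and 11.39 on each array, although single markers differed between pools, as given with the other cell markers below. A gene was called when limma gave an adjusted p under 0.05 over all 8251 genes and the difference was at least 1.5-fold. Of these genes, an unadjusted p under 0.05 was reached by 2445 in TgSREBP-1a and 1410 in TgSREBP-2 against littermates. It was reached by 807 in Scap knockout against wild type, 1764 between the transgenic pools and 3071 between the wild type pools. Errors given after ± are the fitted standard errors, with n = 2 for each pool.

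The interferon genes stood high in both injected pools, and 8 of the 9 had their lowest mean in TgSREBP-1a or in littermates. The exception was Mx1, whose lowest mean was in TgSREBP-2. The signal of Ifit1 was 5.94 and 6.26 in Scap knockout, 6.46 and 6.58 in chow-fed wild type, 4.98 and 4.82 in TgSREBP-1a livers, 5.42 and 5.47 in TgSREBP-2 livers, and 4.55 and 4.71 in littermates. Ifi27 read 10.99 and 10.92 in Scap knockout, 10.89 and 10.94 in chow-fed wild type, 9.01 and 9.19 in TgSREBP-1a livers, 10.40 and 10.32 in TgSREBP-2 livers, and 9.38 and 9.50 in littermates. For Igtp the values were 8.12 and 8.15 in Scap knockout, 8.55 and 8.53 in chow-fed wild type, 6.22 and 6.18 in TgSREBP-1a livers, 7.88 and 7.45 in TgSREBP-2 livers, and 6.79 and 6.85 in littermates. In all 3 genes the 4 injected arrays lay above the 6 others and TgSREBP-2 lay between. All 4 injected arrays were above all 6 high-protein arrays for 7 of the 9 genes, against 10.9% of all genes. The exceptions were Ifit2 and Mx2.

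**Figure D1:**
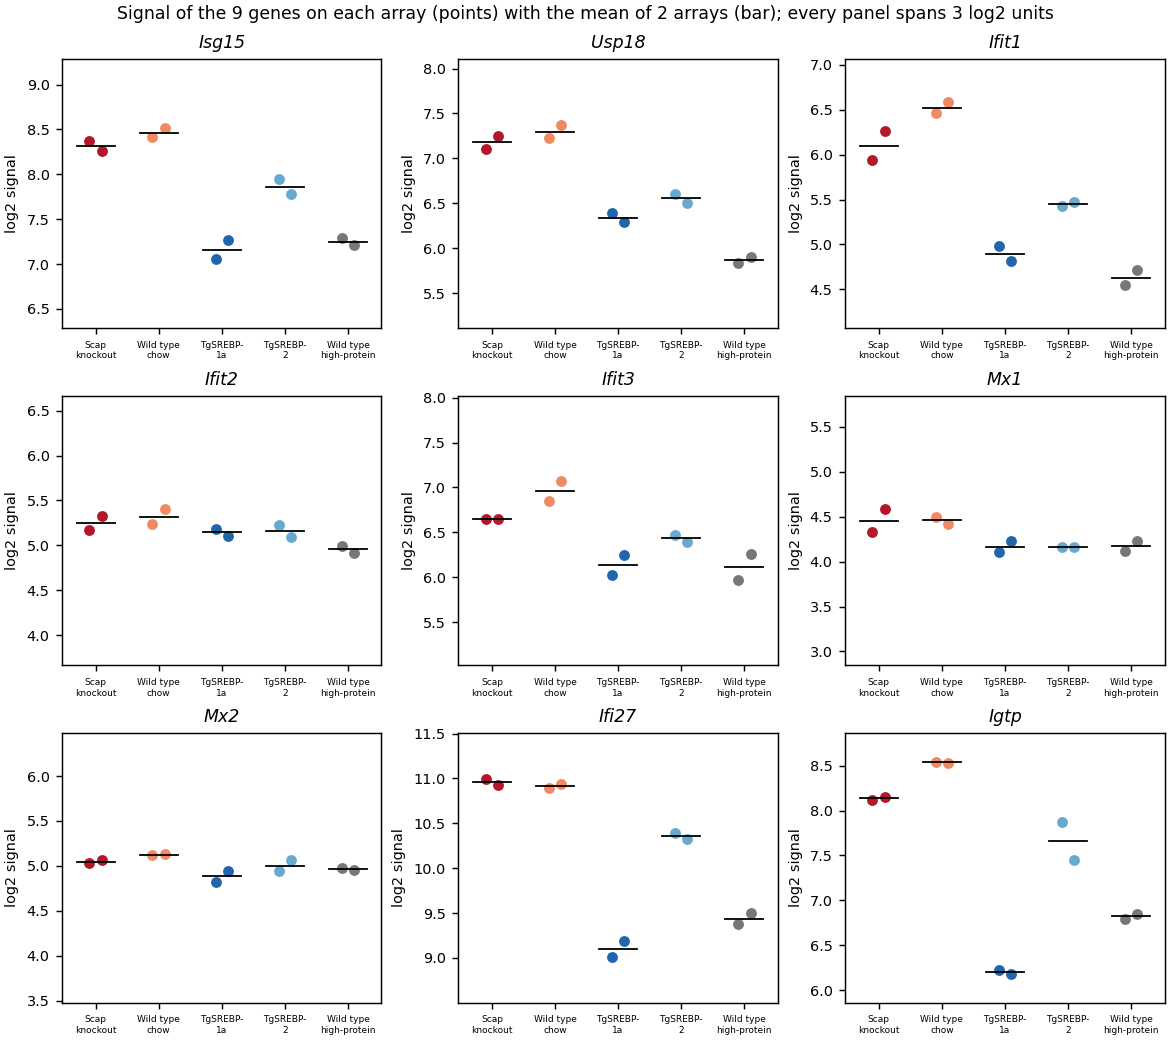
Log2 signal (vertical axis) of the 9 genes on every array, by group. Points are arrays and the bar is the mean of 2 arrays, and every panel spans the same range. Isg15, Usp18, Ifit1, Ifit3, Ifi27 and Igtp show injected pools on top and TgSREBP-2 between them and the littermates, while Ifit2, Mx1 and Mx2 differ little.

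A comparison within wild type sets the chow-fed, injected pool against the pool on the high-protein diet. Of the 9 genes 6 were higher and none lower, where 4.34% of all genes were called higher and 1.28% lower. The median over the 9 genes was 1.22, against -0.01 over all genes. Diet, age, injection and breeding differ together between these pools and cannot be told apart.

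Ifit1, whose protein binds viral RNA that lacks the host's cap marks, was higher by 1.89 ± 0.12, or 3.72-fold (adjusted p = 5.81e-06). With 32 added to the linear signal, which shrinks differences of dim genes, its difference was 1.13, below those of Igtp (1.48) and Ifi27 (1.44), and it was still called. Igtp, a GTPase of the endoplasmic reticulum that acts against intracellular parasites and is known as an interferon gamma target, was higher by 1.72 ± 0.12 or 3.28-fold. Ifi27, a small hydrophobic membrane protein, was higher by 1.48 ± 0.09 or 2.78-fold (adjusted p = 5.28e-06). Usp18 is the protease that removes ISG15 from proteins and also restrains the type I receptor. Its signals were 7.22 and 7.37 in chow-fed wild type, against 5.84 and 5.90 on the high-protein diet, a difference of 1.43 ± 0.09 or 2.69-fold. Isg15, the ubiquitin-like modifier itself, read 8.42 and 8.51 in chow-fed wild type and 7.29 and 7.21 on the high-protein diet, a difference of 1.22 ± 0.10 or 2.32-fold. Sorted from the largest increase, Ifit1 took place 12 among 8251 genes, Igtp 17, Ifi27 26, Usp18 29 and Isg15 52.

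Ifit3, which partners Ifit1 in RNA binding, was higher by 0.84 ± 0.12, with 6.85 and 7.07 in chow-fed wild type against 5.97 and 6.26 on the high-protein diet (adjusted p = 0.00129). Ifit2 lies beside them on chromosome 19 and stood at 0.36 ± 0.09 (adjusted p = 0.022), short of 1.5-fold. Mx1, a nuclear GTPase whose promoter drives Cre here, stood at 0.29 ± 0.10 (adjusted p = 0.0595). Mx2, its cytoplasmic relative, stood at 0.16 ± 0.08, with a 95% interval of -0.02 to 0.34. Over all 10 arrays Ifit2 ranged from 4.92 to 5.40, Mx1 from 4.10 to 4.58 and Mx2 from 4.82 to 5.14. Mean signals of Mx1 (4.28), Mx2 (5.00), Ifit2 (5.17) and the called Ifit1 (5.52) all lay below the lower quartile of all genes at 5.58.

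In TgSREBP-2, 5 of the 9 genes were higher than in wild type on the same diet and none was lower, where 2.18% of all genes were called higher and 0.388% lower. Ifi27 rose by 0.92 ± 0.09 or 1.89-fold (adjusted p = 0.000149), Igtp by 0.84 ± 0.12 or 1.79-fold and Ifit1 by 0.82 ± 0.12 or 1.76-fold. Usp18, at 6.61 and 6.50 in TgSREBP-2 against 5.84 and 5.90 in littermates, rose by 0.68 ± 0.09 or 1.61-fold. Isg15, at 7.95 and 7.78 in TgSREBP-2 against 7.29 and 7.21 in littermates, rose by 0.61 ± 0.10 or 1.53-fold (adjusted p = 0.00543). In each of the 5 genes both TgSREBP-2 arrays were above both wild type arrays. This is no separate support, since the same arrays gave the calls. The Isg15 call was lost without TgSREBP-2 replicate 1 (0.53, adjusted p = 0.0651) and fell just short of 1.5-fold without wild type replicate 2 (0.58). With 32 added to the linear signal, Isg15 (0.52), Usp18 (0.48) and Ifit1 (0.41) were short of 1.5-fold.

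The other 4 members were not called in TgSREBP-2. Ifit3 stood at 0.32 ± 0.12 (adjusted p = 0.195), and at 0.17 without littermate replicate 1, Ifit2 at 0.20 ± 0.09, Mx2 at 0.04 ± 0.08 and Mx1 at -0.01 ± 0.10. Their 95% intervals together ran from -0.23 to 0.59, the upper end being that of Ifit3. The median over the 9 genes was 0.61, against -0.02 over all genes. Both TgSREBP-2 arrays were above all 4 other arrays of this diet, those of TgSREBP-1a included, for 6 of the 9 genes, Ifit3 among them, against 7.33% of all genes.

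In TgSREBP-1a, set against the same littermate pool as TgSREBP-2, only Igtp of the 9 was called, and it was lower. It fell by 0.62 ± 0.12 or 1.54-fold (adjusted p = 0.00482). Both TgSREBP-1a arrays lay below both wild type arrays, but these same arrays gave the call. With 32 added to the linear signal Igtp was short of 1.5-fold (-0.46). Of all genes 4.78% were called higher and 2.59% lower in this comparison. Usp18, at 6.39 and 6.30 in TgSREBP-1a and 5.84 and 5.90 in wild type, was 0.47 ± 0.09 apart (adjusted p = 0.00492), and Ifi27 was at -0.34 ± 0.09 (adjusted p = 0.0257). Both passed on p but not on the size of the difference. Isg15 stood at -0.09 ± 0.10, with 7.05 and 7.27 in TgSREBP-1a against 7.29 and 7.21 in wild type, so that the arrays of the 2 groups overlapped. The remaining differences were 0.27 (Ifit1), 0.19 (Ifit2), 0.02 (Ifit3), -0.01 (Mx1) and -0.08 (Mx2), and the median of the 9 was -0.01, against -0.03 over all genes.

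Compared directly, TgSREBP-1a was below TgSREBP-2 for 3 of the 9 genes, where 2.95% of all genes were called lower and 2.24% higher. Igtp was lower by 1.46 ± 0.12 (log2 difference -1.46, 2.76-fold, adjusted p = 1.63e-05). Ifi27 stood at -1.26 ± 0.09 (2.39-fold, adjusted p = 5.6e-06) and Isg15 at -0.70 ± 0.10 (1.63-fold, adjusted p = 0.000975). In none of these 3 genes did arrays of the 2 transgenic pools overlap, but these same arrays gave the calls. Ifit1 stood at -0.55 ± 0.12 (adjusted p = 0.0117), short of 1.5-fold, and passed it without TgSREBP-1a replicate 1 (-0.63). Usp18 differed less, at -0.21 ± 0.09 with a 95% interval of -0.41 to -0.01 (adjusted p = 0.202). Ifit3 stood at -0.30, Mx2 at -0.12, Ifit2 at -0.01 and Mx1 at 0.00.

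Loss of Scap was compared between pools that had both been injected. Limma called 0 of the 9 genes, where 0.739% of all genes were called higher and 0.921% lower. An unadjusted p under 0.05 was reached by 3 of the 9 genes and by 807 of all 8251. Those 3 genes were Ifit1 at -0.42 ± 0.12 (adjusted p = 0.119), Igtp at -0.40 ± 0.12 (adjusted p = 0.162) and Ifit3 at -0.31 ± 0.12 (adjusted p = 0.383). Both Scap knockout arrays were below both wild type arrays in each of them, but these same arrays picked the 3 genes. A fit to the 4 arrays of these pools alone, in which duplicates were closer, gave an adjusted p = 0.0184 for Ifit1 and 0.00381 for Igtp, both still under 1.5-fold. Over all alternatives the adjusted p ran from 0.0144 to 0.780 for Ifit1 and from 0.00381 to 0.636 for Igtp. The Ifit1 difference was -0.26 without Scap knockout replicate 1, and that of Ifit3 was -0.20 without replicate 2 of chow-fed wild type. Ifi27 was at 0.04 ± 0.09, Isg15 at -0.15 ± 0.10, with 8.37 and 8.26 in Scap knockout against 8.42 and 8.51 in wild type, and Usp18 at -0.12 ± 0.09. Mx2, Ifit2 and Mx1 stood at -0.08, -0.07 and -0.01. The 95% intervals of all 9 ran from -0.68 to 0.24, so differences of 1.5-fold are inside the interval for Ifit1 and Igtp.

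**Figure D2:**
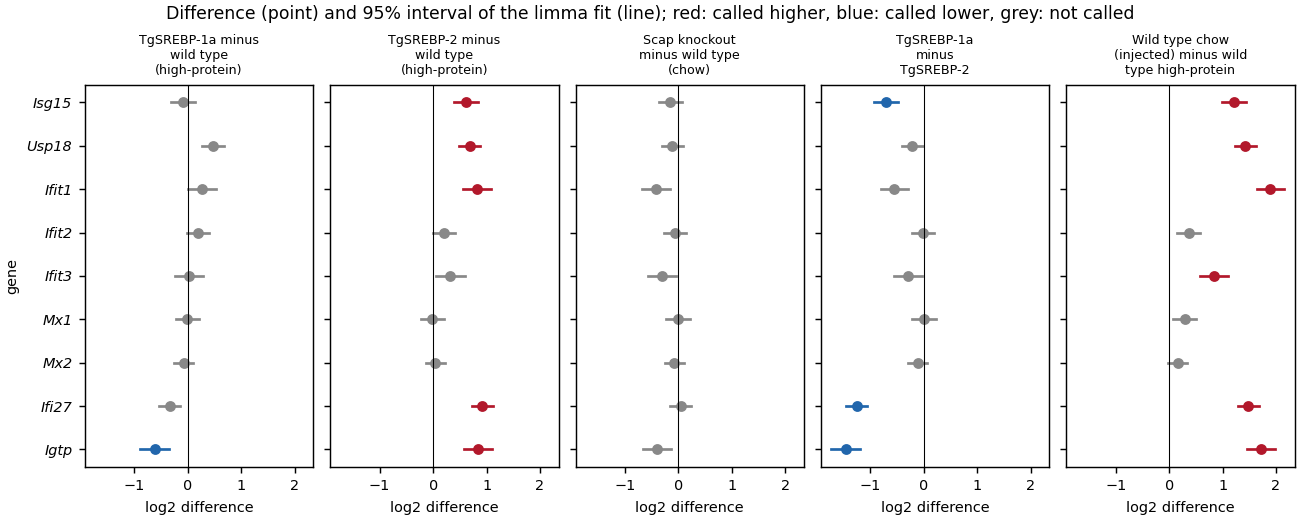
Log2 difference (horizontal axis) of the 9 genes in the 5 comparisons. Points are differences and lines are 95% intervals of the limma fit, in red where called higher, blue where called lower and grey where not called. The wild type comparison has 6 red genes, TgSREBP-2 against wild type 5, and Scap knockout against wild type none of either colour.

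Other interferon-inducible GTPases, the relatives of Igtp and the guanylate-binding proteins, act against intracellular pathogens. Of 8 measured, 6 were higher in the chow-fed wild type pool than in the high-protein one, and the median of the 8 was 1.04. Irgm2 was higher by 1.58 ± 0.08 (2.99-fold), Ifi47 by 2.84-fold and Gbp3 by 1.40 ± 0.11 (2.64-fold), followed by Gbp7 (1.05), Irgm1 (1.02) and Iigp1 (0.97). Irgm1 lost its call without replicate 2 of chow-fed wild type (adjusted p = 0.0512). Gbp2 and Gbp2b stood at 0.47 and 0.53.

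In TgSREBP-1a, 3 of these 8 were lower than in wild type. Iigp1 fell by 1.56 ± 0.16 or 2.95-fold (adjusted p = 6.33e-05), with 8.83 and 8.50 in TgSREBP-1a against 10.37 and 10.09 in littermates, and its other probe set fell by 1.23. Ifi47 fell by 0.83 ± 0.10 and Irgm2 by 0.62 ± 0.08, the last short of 1.5-fold without TgSREBP-1a replicate 1 (-0.57). Both were short of it with 32 added to the linear signal (-0.52 each). The guanylate-binding genes Gbp2, Gbp2b, Gbp3 and Gbp7 were not called, at 0.20, 0.15, 0.25 and -0.06. Against TgSREBP-2, 3 of the 8 were lower in TgSREBP-1a, Iigp1 at -1.47, Ifi47 at -1.18 and Irgm2 at -1.17.

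In TgSREBP-2 against wild type 0 of the 8 were called, while 1 passed on adjusted p alone and 3 had an unadjusted p under 0.05. Irgm2 came nearest at 0.54 ± 0.08 (adjusted p = 0.00317), short of 1.5-fold, and Iigp1 stood at -0.09. In Scap knockout Irgm2 fell by 0.73 ± 0.08 (8.51 and 8.54, against 9.21 and 9.29 in wild type, adjusted p = 0.000521) and Iigp1 fell by 0.88 ± 0.16 (10.23 and 10.41, against 11.23 and 11.16 in wild type). The Iigp1 call was lost on leaving out any 1 of these 4 arrays (adjusted p of 0.0569 to 0.136). Gbp3 at -0.57 and Ifi47 at -0.55 were short of 1.5-fold, and so was Gbp7 at -0.55 (adjusted p = 0.127). The median of the 8 was -0.55, against 0.00 over all genes.

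**Figure D3:**
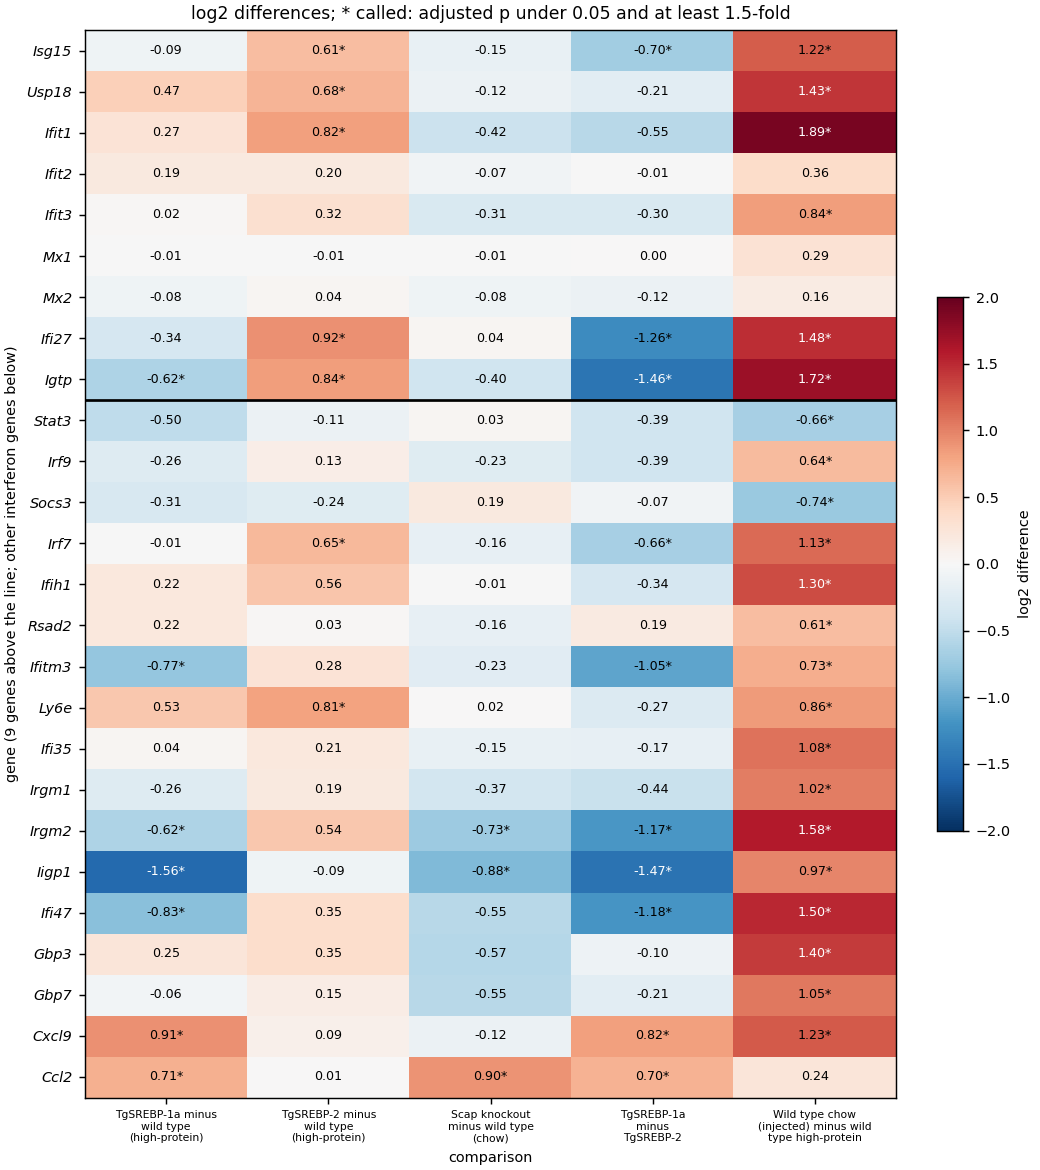
Log2 differences in the 5 comparisons (columns) for the 9 genes (above the line) and for the other listed interferon genes that were called in at least 1 comparison (below it), with an asterisk where called. Iigp1 reads -1.56 in TgSREBP-1a against wild type and -0.88 in Scap knockout against wild type, while Isg15 reads -0.09 and -0.15 there.

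Of 13 receptors, kinases and regulators, limma called 0 in TgSREBP-1a, TgSREBP-2, Scap knockout and between the transgenic pools, where 5, 2, 1 and 5 had an unadjusted p under 0.05. Between the wild type pools Irf9, the DNA-binding part of the type I complex, was higher on chow by 0.64 ± 0.10, and short of 1.5-fold without replicate 2 of chow-fed wild type or with 32 added to the linear signal (0.55 in both). Stat3, which carries interleukin-6 signals, and Socs3, the inhibitor it induces, were lower on chow (-0.66 ± 0.08 and -0.74 ± 0.10), by less on their other probe sets (-0.42 and -0.21), and the means of both were short of 1.5-fold (-0.54 and -0.48). Ifnar2, a type I receptor chain, stood at -0.45 in TgSREBP-1a (adjusted p = 0.0389) but at -0.06 on its other probe set. Stat3 stood at -0.50 there (adjusted p = 0.00158) and at -0.32 on its other probe set. Between the transgenic pools Ifnar2 (-0.55), Stat3 (-0.39) and Irf9 (-0.39) had adjusted p-values of 0.0198, 0.00941 and 0.0259. All of these were short of 1.5-fold.

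Of 6 interferon regulatory factors only Irf7, the factor that amplifies type I interferon production, was called in any comparison. Its signals were 8.11 and 8.14 in Scap knockout, 8.23 and 8.33 in chow-fed wild type, 7.12 and 7.17 in TgSREBP-1a livers, 7.77 and 7.84 in TgSREBP-2 livers, and 7.18 and 7.12 in littermates. It was higher by 1.13 ± 0.08 between the wild type pools and by 0.65 ± 0.08 in TgSREBP-2, and stood at -0.66 ± 0.08 between TgSREBP-1a and TgSREBP-2. A dimmer probe set of Irf7 gave 0.25, 0.05 and -0.16 for these comparisons, and the mean of both probe sets was short of 1.5-fold in TgSREBP-2 (0.35) and between the transgenic pools (-0.41), as was Irf7 with 32 added to the linear signal (0.55 and -0.56). In TgSREBP-1a and Scap knockout limma called 0 of the 6, where 3 and 1 had an unadjusted p under 0.05. Irf3, the factor that sensors activate, stood at -0.42 in TgSREBP-1a (adjusted p = 0.0163) and at -0.44 on its other probe set, short of 1.5-fold. Irf1 stood at 0.32 between the wild type pools (adjusted p = 0.0248).

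Among 7 sensors and adaptors Ifih1, the MDA5 sensor of long double-stranded RNA, was higher in chow-fed wild type, 2.47-fold (7.42 and 7.33, against 6.16 and 5.99 on the high-protein diet). It stood at 0.56 ± 0.10 in TgSREBP-2 (adjusted p = 0.00812), short of 1.5-fold, and was the only 1 of the 7 called in any comparison. In the other 4 comparisons limma called 0, and 0 of the 7 had an unadjusted p under 0.05 in TgSREBP-1a, 2 in TgSREBP-2, 1 in Scap knockout and 3 between the transgenic pools. Of 3 measured genes of ISG15 conjugation limma called 0 in all 5 comparisons, with an unadjusted p under 0.05 in 1, 1, 0, 1 and 1 of them for TgSREBP-1a, TgSREBP-2, Scap knockout, the transgenic pools and the wild type pools. Among them Ube2l6, the conjugating enzyme, stood at 0.52 ± 0.10 in TgSREBP-1a (adjusted p = 0.00443), and Uba7, the activating enzyme, at 0.34 between the wild type pools.

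Of 17 other antiviral effectors 5 were higher in chow-fed wild type than on the high-protein diet and none was lower, counting Ifih1 again. Ifi35 was higher by 1.08 ± 0.12, Ly6e by 0.86 ± 0.07, Ifitm3 by 0.73 ± 0.10 and Rsad2 by 0.61 ± 0.11, the last short of 1.5-fold without high-protein wild type replicate 2 (0.51) or with 32 added to the linear signal (0.42). Ly6e, a lipid-anchored surface protein, rose in TgSREBP-2 by 0.81 ± 0.07, but its dimmer probe set stood at -0.23 there and at -0.54 between the wild type pools. Ifitm3, which blocks virus entry at endosomes, fell in TgSREBP-1a by 0.77 ± 0.10 (9.98 and 9.74, against 10.66 and 10.60 in wild type) and stood at -1.05 against TgSREBP-2. In Scap knockout limma called 0 of the 17, while 3 had an unadjusted p under 0.05.

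Of 5 measured chemokines, Cxcl9, an interferon gamma target that attracts T cells, rose in TgSREBP-1a by 0.91 ± 0.18 (5.81 and 5.67, against 5.14 and 4.53 in wild type), and so did Ccl2, which attracts monocytes, by 0.71 ± 0.17. Between the transgenic pools both were higher in TgSREBP-1a, by 0.82 and 0.70. Ccl2 also rose in Scap knockout by 0.90 ± 0.17 (5.71 and 5.68, against 4.77 and 4.83 in wild type), and Cxcl9 was higher by 1.23 in chow-fed wild type than on the high-protein diet. Ccl2 lost its calls without TgSREBP-1a replicate 1 (adjusted p = 0.0875) or high-protein wild type replicate 2 (adjusted p = 0.115), and in Scap knockout without any 1 of the 4 arrays (adjusted p of 0.135 to 0.189). Between the transgenic pools the Ccl2 call was lost without either TgSREBP-1a array or TgSREBP-2 replicate 2 (adjusted p of 0.0606 to 0.173), and that of Cxcl9 without TgSREBP-1a replicate 1 or TgSREBP-2 replicate 2 (adjusted p = 0.0705 and 0.107). With 32 added to the linear signal both genes were short of 1.5-fold in TgSREBP-1a against littermates (Cxcl9 0.49, Ccl2 0.34) and against TgSREBP-2 (Cxcl9 0.45, Ccl2 0.34), and so was Ccl2 in Scap knockout (0.49). In a fit to the 6 arrays of the high-protein diet alone, Ccl2 had an adjusted p = 0.0685 against littermates and 0.0933 between the transgenic pools. In TgSREBP-2 limma called 0 of the 5, and 0 had an unadjusted p under 0.05.

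The profile of the 9 genes over the 10 arrays, each gene centred on its own mean, was compared with every other gene whose group means spanned at least 1.5-fold (1430 genes). Irf7 came first with a Pearson correlation of 0.99, followed by the chaperone Fkbp4 and by Foxred1 (both 0.98), with Mrpl28, Tmem208, Nit2, Gcsh, Zscan21, Urod and Ddc at 0.97 to 0.98. For Igtp alone the nearest were Fkbp4, Nit2, Irgm2, Ifi47 and Slc6a13, at 0.98 to 0.99. Only 5 pools stand behind the 10 arrays, and duplicates share their RNA, so these values describe the order of the pools.

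Markers of other cells differed between the same pools, and fewer cells of a type cannot be told apart from less RNA per cell. The summed linear signal of 10 macrophage markers was 3932 to 3996 in Scap knockout, 4032 to 4294 in chow-fed wild type, 4440 to 4664 in TgSREBP-1a, 3565 to 3834 in TgSREBP-2 and 2760 to 2767 in littermates. Of the 10 markers 5 rose in TgSREBP-1a, 3 in TgSREBP-2, 0 by limma in Scap knockout (2 at an unadjusted p under 0.05), and 4 were higher in chow-fed than in high-protein wild type. For 7 exocrine pancreas markers the sum was 1822 to 1916 in Scap knockout, 7800 to 7962 in chow-fed wild type, 1350 to 1352 in TgSREBP-1a, 21886 to 22065 in TgSREBP-2 and 16037 to 16500 in littermates. All 7 were lower in TgSREBP-1a and in Scap knockout than in their wild type, 2 were higher in TgSREBP-2, all 7 were lower in TgSREBP-1a than in TgSREBP-2, and 6 were lower in chow-fed wild type than in littermates. Of 11 lymphocyte markers only Ighm was called. It was higher in TgSREBP-1a (1.42, and 1.52 against TgSREBP-2) and in chow-fed wild type (0.85), and lower in Scap knockout (-0.69). Of 8 endothelial markers Cdh5 and Lyve1 were called in TgSREBP-1a (Lyve1 also against TgSREBP-2). Of 3 measured markers of plasmacytoid dendritic cells only Ly6d was called, in TgSREBP-1a (3.39 above littermates, also against TgSREBP-2) and Scap knockout (1.21). Tcf4 and Irf8 stood at 0.53 and 0.03 in TgSREBP-1a and at -0.02 and -0.10 in Scap knockout. Siglech and Bst2 of that list were not measured. Of 8 neutrophil markers limma called 0, and at most 1 had an unadjusted p under 0.05 in any comparison. Among 10 hepatocyte markers, Tat (0.77) and Hamp (0.91) were higher and Ttr (-1.37) and Apob (-0.64) lower in TgSREBP-1a, and Hamp was lower in TgSREBP-2 (-1.10). Between the transgenic pools Hamp (2.01) and Tat (0.80) were higher and Ttr (-1.26) lower in TgSREBP-1a. Ttr (0.69) and Hamp (0.96) were higher and Fgb (-0.73) lower in chow-fed wild type than in littermates, and limma called 0 in Scap knockout, where 3 had an unadjusted p under 0.05. The lowest log2 signal of any probe set was 2.68, so no marker sum falls to 0 even where a cell type is absent. The part of these cells in the interferon results was not tested.

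**Figure D4:**
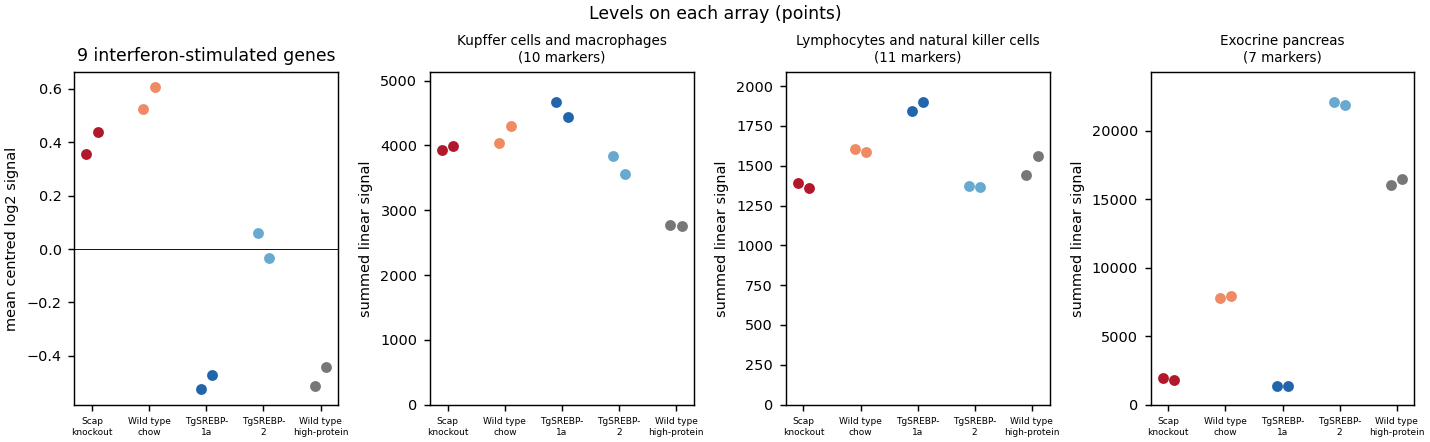
Mean centred log2 signal of the 9 genes (left) and summed linear signal of markers of macrophages, lymphocytes and exocrine pancreas, on each array by group (points). The macrophage sum is 4440 to 4664 in TgSREBP-1a, above every other array, and 2760 to 2767 in littermates, below every other array. The mean of the 9 genes is lowest in both of these pools.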

How the data were processed

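Liver RNA pools of 5 male mice per group (20 µg in all) were read on MG_U74Av2 arrays, 2 per pool, 10 in total. The authors deposited log2 signals for 12488 probe sets, made with RMA per the submitters' processing notes (no version is given there), although the series' design text names Microarray Suite. Values ran from 2.68 to 14.03, and array medians lay at 6.37 to 6.40. The 2 arrays per pool limit the precision. No group holds a further pool, so the difference between mice is not measured.

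Gene names came from GEO's platform annotation, with symbols brought up to date from RefSeq. There were 10833 with 1 symbol (10817 matched by gene ID), 396 with several, 1193 with none and 66 controls, and only the first kind was used. This gave 8251 genes, each read from the brightest of its probe sets on average. The 10 arrays were fitted with limma 3.58.1 (R 4.3.3) on the group means, which left 5 residual degrees of freedom, with p-values adjusted by Benjamini-Hochberg in each of 5 contrasts. The fit was also run on simulated data with independent noise on each array. Spread between mice and effects shared by arrays of the same replicate number were not simulated.

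The members, 7 lists of interferon genes and 7 lists of cell type markers were chosen with earlier results of these data known. Named genes are the 9 members, the list genes called in a comparison, up to 4 with the largest differences per list, and the 10 and 5 genes most like the members and Igtp. Gbp2, Gbp2b, Uba7, Ube2l6, Ifnar2, Irf1, Irf3, Socs1, Oas1g and Trim21 were named after their values were seen. Differences between duplicates of the same replicate number correlated at 0.457 to 0.608 among the 3 pools of the high-protein diet, so that arrays of 1 number pair across them. The reported fit has no term for the number, and a fit with it as a block was an alternative. In the Scap set, which has 1 pair of pools, the correlation was 0.304. Between pools of the Scap set and pools of the high-protein diet it was negative, from -0.482 to -0.122. The block was coded within each set. What the number marks is not given in the labels.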

Additional observations from a re-analysis of the deposited data

Results flagged for a closer look

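Differences between TgSREBP-1a and TgSREBP-2 stood out because the effects of the transgenes against the same wild type pool differed by a test of the difference itself. Both effects share that wild type pool, so the value given is that of the direct comparison of the transgenic pools. Among the 9 genes these were Igtp at -1.46, Ifi27 at -1.26 and Isg15 at -0.70, each lower in TgSREBP-1a. Among the other interferon genes Iigp1 stood at -1.47, Ifi47 at -1.18, Irgm2 at -1.17, Ifitm3 at -1.05 and Irf7 at -0.66. Cxcl9 at 0.82 and Ccl2 at 0.70 were higher in TgSREBP-1a, and both were short of 1.5-fold with 32 added to the linear signal (0.45 and 0.34). No group held enough arrays for a search for single arrays that stand apart.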

How the results depend on the processing

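For the 9 genes and the other called interferon genes, 984 values under other settings were set against the reported fit. Of these, 918 kept their direction and their side of the threshold. The 984 include the setting of adjusted p alone, which reuses the reported fit, so no sign can turn and no call can be lost there. Calls were lost in 44 and gained in 5. Among those gained, Usp18 and Ifi27 in TgSREBP-1a, Ifit1 between the transgenic pools and Ifit2 between the wild type pools passed on adjusted p alone. The sign turned in 17, and none of these was a called difference. With the replicate number as a block, all 79 such values kept call and direction, and 618, 229, 150, 442 and 479 genes were called for TgSREBP-1a, TgSREBP-2, Scap knockout, the transgenic pools and the wild type pools, against 608, 212, 137, 428 and 464 without it. On adjusted p alone the numbers of genes were 1366, 417, 234, 911 and 1869, and 3 of the 9 genes passed in TgSREBP-1a. With 32 added to the linear signal, 0 of the 9 genes were called in TgSREBP-1a (Igtp at -0.46) and 2 in TgSREBP-2. Testing only genes at or above the median signal of 6.76 kept only Isg15, Ifi27 and Igtp of the 9. All 3 were called in TgSREBP-2 and between the wild type pools. Quantile normalization turned Mx1 to 0.028 in TgSREBP-1a, 0.044 in TgSREBP-2 and -0.016 between the transgenic pools. Leaving out 1 array at a time gave, in TgSREBP-1a, -0.195 to 0.019 for Isg15, -0.126 to 0.171 for Ifit3 and -0.069 to 0.055 for Mx1. In TgSREBP-2 it gave -0.064 to 0.040 for Mx1 and -0.023 to 0.098 for Mx2, in Scap knockout -0.153 to 0.013 for Ifit2 and -0.134 to 0.121 for Mx1, and between the transgenic pools -0.077 to 0.057 for Ifit2 and -0.057 to 0.067 for Mx1. The cause of these turns was not tested. Errors between mice are not in any of these settings.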
